A study of Homo sapiens with 12 samples.

Results

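The genes described are the RNA sensors DDX58, IFIH1, DHX58, TLR3 and EIF2AK2, the adaptors MAVS and TICAM1, and the transcription factors IRF3 and IRF7. They were taken as all non-control probes that carry one of these names in the scanner files. This gave 9 of the 24856 genes tested, measured by 19 probes, and every one of the 19 probes was well above background on all 12 arrays. Messenger RNA was measured in A549, PC14 and PC14CDDP cells, which are lines of human lung cancer, the last a cisplatin-resistant line derived from PC14. Every line was transfected at 25 nM with premiR-197, a synthetic precursor that supplies miR-197, with its control AllStar-NC (NC), with LNA-miR-197, a locked nucleic acid oligonucleotide against miR-197, or with its control LNA-miR-NC. All cells received the DharmaFECT 1 reagent, and no untreated cells were among the samples, so that each comparison is between transfected cells. A single array was made for each transfection of each line, and the 3 lines served as the replicates.

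Cells recognize foreign or misplaced RNA through a small set of proteins. RIG-I (DDX58) and MDA5 (IFIH1) are cytosolic helicases that bind double-stranded RNA and signal through MAVS on mitochondria, LGP2 (DHX58) is a related helicase without the signaling domain that tunes both, and TLR3 detects double-stranded RNA in endosomes and signals through TICAM1 (TRIF). Both routes lead to phosphorylation of IRF3 and IRF7, which switch on interferon genes, while PKR (EIF2AK2) binds double-stranded RNA and halts translation through eIF2alpha. Most of the sensors and IRF7 are themselves interferon-stimulated genes, and synthetic oligonucleotides are among the RNAs that these proteins can meet in transfected cells.

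The agent that distinguishes the transfections is miR-197, and the mature sequences of both arms of its hairpin are shown for that reason. The sources used here do not give the arm that premiR-197 supplies or that LNA-miR-197 targets. RefSeq places them on GRCh38.p14 chromosome 1, plus strand, at positions 109598901 to 109598923 (5p) and 109598940 to 109598961 (3p). Both are written 5′ to 3′, with the seed (bases 2 to 8) in capitals.
hsa-miR-197-3p: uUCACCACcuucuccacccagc
hsa-miR-197-5p: cGGGUAGAgagggcagugggagg

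RefSeq promoter windows of 300 bases, from 250 before to 50 after the start, were at hand for 6 of the 9 genes, namely DDX58, IFIH1, TLR3, EIF2AK2, MAVS and TICAM1. Those of IFIH1, TLR3 and DDX58 are printed because, among the sensors, these varied most closely together over the arrays within lines, by the brightest probe of each gene. They come from GRCh38.p14, are read in the direction of the gene, and show in capitals each match to the core of the interferon-stimulated response element, GAAANNGAAA on either strand. The windows are chr2:162318635-162318934 (minus strand), chr4:186068906-186069205 (plus strand) and chr9:32526147-32526446 (minus strand; the gene is now named RIGI).
IFIH1: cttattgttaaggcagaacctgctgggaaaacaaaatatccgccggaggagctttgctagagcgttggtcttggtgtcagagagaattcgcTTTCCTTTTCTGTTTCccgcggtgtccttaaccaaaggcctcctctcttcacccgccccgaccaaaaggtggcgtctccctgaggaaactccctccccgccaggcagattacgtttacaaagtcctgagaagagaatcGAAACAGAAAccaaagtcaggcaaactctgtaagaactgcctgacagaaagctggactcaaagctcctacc
TLR3: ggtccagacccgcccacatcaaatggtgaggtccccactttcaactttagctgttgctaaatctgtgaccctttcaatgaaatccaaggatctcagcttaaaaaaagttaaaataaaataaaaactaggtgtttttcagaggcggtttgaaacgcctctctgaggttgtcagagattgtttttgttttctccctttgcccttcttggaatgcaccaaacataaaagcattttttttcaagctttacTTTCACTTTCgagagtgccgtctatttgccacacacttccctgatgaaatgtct
DDX58: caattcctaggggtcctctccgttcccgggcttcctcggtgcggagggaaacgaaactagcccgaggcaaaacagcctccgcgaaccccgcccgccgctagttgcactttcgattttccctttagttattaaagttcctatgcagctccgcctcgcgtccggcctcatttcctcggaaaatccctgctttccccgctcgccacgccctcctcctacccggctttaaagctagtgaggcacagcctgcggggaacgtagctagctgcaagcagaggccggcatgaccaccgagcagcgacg

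The core was found in 3 of the 6 windows, those of IFIH1, TLR3 and EIF2AK2, against 3.57% of all 35116 promoter windows of this length. IFIH1 held 3 matches, a pair of which overlapped, TLR3 held 1 and EIF2AK2 held 1. The interferon-gamma activated site TTCNNNGAA, which reads the same on both strands, was found at 2 places in TLR3 and in 7.66% of all windows. The NF-kB site GGGANNTTCC was found once each in IFIH1, DDX58 and TICAM1 and in 1.61% of all windows. These are matches of letters and no measure of binding.

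Signals below are Feature Extraction's processed signals, background-subtracted within an array. Differences are log2 values after each array was scaled to its 75th percentile, which lay between 613.5 and 714.6. A difference was called when limma's Benjamini-Hochberg adjusted p, taken over all 24856 genes, was under 0.05. The share of probes well above background ranged over the arrays from 55.8% to 63.1%. The median SD of repeated spots on an array was 0.210 to 0.275 (log2) at signals from 15 to 50, where several TLR3 and IFIH1 values lie, and 0.0536 to 0.0621 at signals above 250. The epithelial keratins KRT7, KRT8, KRT18 and KRT19 were well above background on all 12 arrays, EPCAM on 7, CDH1 on 6, the lung factor NKX2-1 on 8 and SFTPB on 1. Of 11 markers of other cells, COL1A2, PDGFRB and DCN were well above background on 0 arrays, whereas others, including PTPRC, CD14, CD68, COL1A1 and VWF, passed on 12. Slide 1 carried the A549 arrays, and slide 2 carried the other lines. A given transfection always had the same column of its slide, so that transfection and column cannot be told apart.

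The signals of all 9 genes by array show how the levels fell out before any test.

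**Figure D1:**
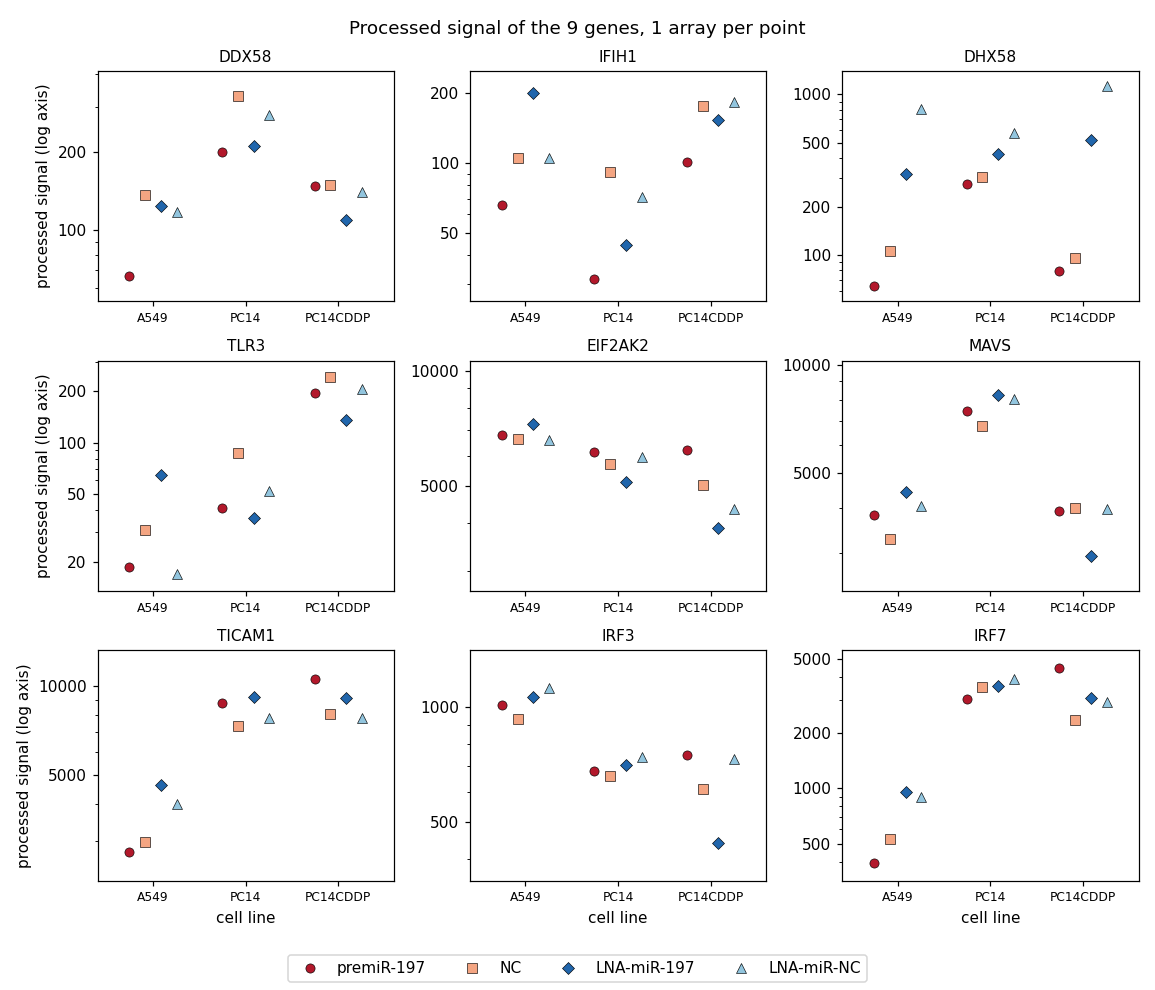
Processed signal (log axis) of the brightest probe of each gene in A549, PC14 and PC14CDDP, 1 array per point, with circles for premiR-197, squares for NC, diamonds for LNA-miR-197 and triangles for LNA-miR-NC. Both LNA points of DHX58 lie above both other points in each line, and IRF7 in A549 (395 to 958) lies below every PC14 and PC14CDDP point (2350 to 4460).

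The first question was whether the sensors differed between oligonucleotide chemistries, that is, between the 6 LNA arrays and the 6 arrays of premiR-197 and NC. LNA-miR-197 is directed against miR-197, which premiR-197 supplies, so that this comparison also holds any effect of miR-197. The type of oligonucleotide in NC is not given by its label, so that its place in this grouping is an assumption. DHX58 rose, and it was the one member called. In A549 its signal was 64.4 after premiR-197, 106 after NC, 319 after LNA-miR-197 and 811 after LNA-miR-NC. In PC14 it was 277, 304, 425 and 577 in the same order, and in PC14CDDP 79.4, 95.6, 516 and 1120. The same order of the 4 transfections held in all 3 lines, with LNA-miR-NC highest and premiR-197 lowest, and the groups did not overlap within any line. The log2 difference between LNA arrays and the others was 2.12 (limma SE 0.39, SD over lines 1.29, n = 3 lines), a 4.36-fold higher level (limma adjusted p = 0.0202). A549 cells gave a 5.66-fold, PC14 cells a 1.61-fold and PC14CDDP cells a 9.05-fold higher level. DHX58 ranked 62 of 24856 genes by this difference.

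Of all genes 4.45% were called higher and 6.36% lower in this comparison, and 1 of the 9 members was called higher and 0 lower. Both LNA arrays lay above both other arrays in all 3 lines for 2.68% of genes and for DHX58 alone among the members, and below them for 5.79% of genes and 0 members. The call on DHX58 rested on all 3 lines. Without A549 the log2 difference was 1.93 (limma adjusted p = 0.127), without PC14 it was 2.84 (limma adjusted p = 0.0568) and without PC14CDDP it was 1.60 (limma adjusted p = 0.168). With the slide in place of the line as block it was 2.12 (limma adjusted p = 0.0536). DHX58 was measured by 1 probe, at positions 40253459 to 40253518 of hg19 chromosome 17, so that no other probe bears on its difference.

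The members other than DHX58 did not pass the test between chemistries. EIF2AK2 was the nearest, with a log2 difference of -0.21 (95% interval -0.40 to -0.03, limma adjusted p = 0.119) and a lower mean after LNA in 3 of 3 lines. The 95% intervals were -0.36 to 0.26 for DDX58, -0.17 to 0.87 for IFIH1, -0.94 to 0.58 for TLR3, -0.18 to 0.25 for MAVS, -0.11 to 0.38 for TICAM1, -0.25 to 0.17 for IRF3 and -0.16 to 0.80 for IRF7. The widest of these, that of TLR3, belongs to the dimmest gene. The median over the 9 members was 0.03 and that over all genes was -0.06.

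**Figure D2:**
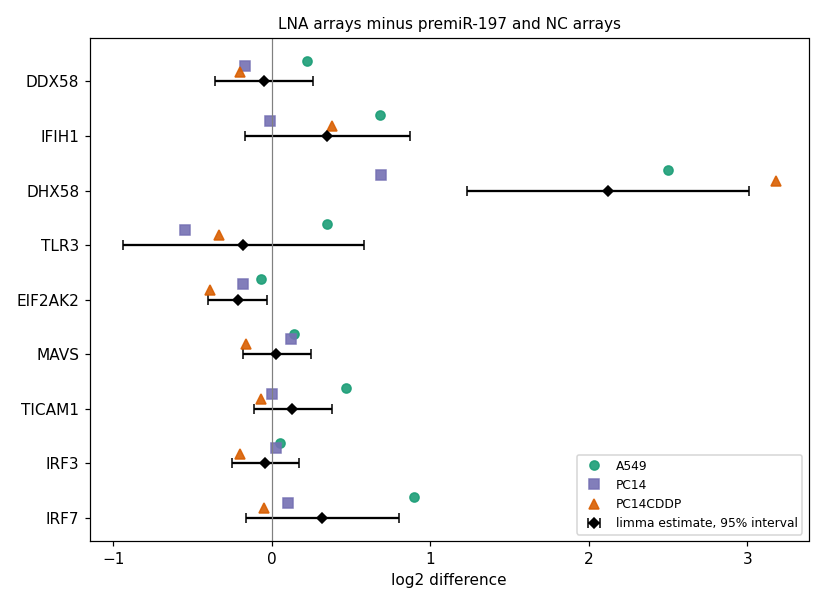
Log2 difference between the LNA arrays and the premiR-197 and NC arrays for each gene, with coloured points for the 3 lines and black diamonds with bars for the limma estimate and its 95% interval. The interval of DHX58 runs from 1.23 to 3.01, and its PC14 point (0.69) lies below the interval.

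The size of the DHX58 difference was unequal between lines, being 2.49 (log2) larger in PC14CDDP than in PC14, but a test of chemistry by line across all genes did not call it (limma adjusted p = 1). That test called 0.00805% of genes, which is 2, and 0 members, with 2 members (DHX58 and IRF7) and 1752 of all genes under an unadjusted p of 0.05. IRF7 gave 0.95 for A549 against PC14CDDP (limma adjusted p = 0.999). In A549 its signals were 395 after premiR-197, 530 after NC, 958 after LNA-miR-197 and 902 after LNA-miR-NC, without overlap between chemistries. In PC14 they were 3060, 3530, 3560 and 3910 in the same order, where the chemistries overlapped only once the arrays were scaled (log2 2.46 after NC and 2.32 after LNA-miR-197). In PC14CDDP they ran from 2350 to 4460, and the chemistries overlapped. TICAM1, the adaptor of TLR3, also had both LNA signals above both others in A549 by its brighter probe (4620 and 3990 against 2740 and 2960) and overlapped in the other lines. By its other probe the chemistries overlapped in A549 once the arrays were scaled (log2 -2.77 and -2.89 after LNA against -2.87 and -3.05). On scaled values MAVS in PC14 was higher after LNA in 4 of 4 pairs of arrays. EIF2AK2 was higher in 0 of 4 pairs in PC14 and in PC14CDDP. The share of all genes separated in this way within 1 line was not counted, so that these separations are descriptions only.

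The control oligonucleotides alone were then compared, since both are negative controls. LNA-miR-NC against NC called 0.515% of genes higher and 0.201% lower, and 0 members by limma, with 1 member, DHX58, and 3397 of all genes under an unadjusted p of 0.05. DHX58 was 5.15-fold higher (log2 2.37, SE 0.55, limma adjusted p = 0.113), by 7.12-fold in A549, 1.75-fold in PC14 and 11-fold in PC14CDDP. The methods' t-test gave 1 member and 760 genes at an unadjusted p under 0.05, and 0 of either after adjustment. It was run here, and in the comparisons below, without pairing the arrays of a line. Differences between lines thus enter its spread, and its low counts do not show an absence of effects. DDX58 (-0.28), IFIH1 (-0.20) and TLR3 (-0.71) had lower values after LNA-miR-NC in 3 of 3 lines and were not called. The active oligonucleotides, LNA-miR-197 against premiR-197, called 5.67% of genes higher and 8.36% lower and 0 members. With an unadjusted p under 0.05 there were 3 members (IFIH1, DHX58 and EIF2AK2) and 8183 of all 24856 genes, so that the members stand at the background. Here DHX58 was 3.68-fold higher (limma adjusted p = 0.0563) and IFIH1 1.87-fold higher (log2 0.90, SE 0.32, limma adjusted p = 0.0956), each in 3 of 3 lines. These comparisons share arrays with the comparison of 6 against 6 and are no separate evidence.

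The next question was how premiR-197 differed from NC and LNA-miR-197 from LNA-miR-NC. NC was grouped here with premiR-197, but its label, AllStar-NC, does not give its oligonucleotide type. The first of these comparisons may therefore hold more than a change in miR-197. After premiR-197 the cytosolic helicases and TLR3 had lower scaled values than after NC in every line by the probe standing for each gene, but no member passed the test. IFIH1, which encodes MDA5, gave 65.7 after premiR-197 and 105 after NC in A549, 31.7 and 91.5 in PC14, and 101 and 177 in PC14CDDP. DDX58, which encodes RIG-I, gave 66.5 and 137, 200 and 330, and 148 and 149 in the same lines, so that its difference in PC14CDDP was near 0. TLR3 gave 18.5 and 30.5 in A549 and 41.1 and 87.1 in PC14, and in PC14CDDP its signal after premiR-197 was 0.727 times that after NC (243) on the scaled values. The mean log2 differences were -1.09 for IFIH1 (SE 0.32, limma adjusted p = 0.168), -0.68 for DDX58 (SE 0.19, limma adjusted p = 0.157), -0.79 for TLR3 (SE 0.47, limma adjusted p = 0.443) and -0.46 for DHX58 (SE 0.55, limma adjusted p = 0.733).

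This comparison called 0.0845% of genes higher and 0.133% lower by limma, and 0 members, with 2 members (DDX58 and IFIH1) and 4096 of all genes under an unadjusted p of 0.05, and 0 members and 426 genes by the methods' t-test. The other DDX58 probe gave -0.17 (limma adjusted p = 0.628) and was higher after premiR-197 in PC14CDDP (140 against 109). By the probe standing for each gene, EIF2AK2, MAVS, TICAM1, IRF3 and IRF7 had mean differences between 0.01 and 0.09. The other MAVS probes gave -0.63 (limma adjusted p = 0.184), -0.54 (limma adjusted p = 0.222), -0.22, -0.21, -0.13 and 0.04, none of them called. IRF7 was higher in PC14CDDP (4460 after premiR-197 and 2350 after NC) and lower in A549 and PC14.

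After LNA-miR-197 no member was called against LNA-miR-NC, where 3.75% of genes were called higher and 3.90% lower. By limma 0 members and 6765 of all genes had an unadjusted p under 0.05, and by the methods' t-test 0 members and 758 genes. DHX58 signals after LNA-miR-197 were below those after LNA-miR-NC in 3 of 3 lines, with a log2 difference of -0.95 (SE 0.55, limma adjusted p = 0.309). IFIH1 and TLR3 differed in direction between lines. In A549 IFIH1 gave 200 after LNA-miR-197 and 105 after LNA-miR-NC, and TLR3 gave 64.2 and 16.8. In PC14 IFIH1 gave 44.4 and 71.7 and TLR3 gave 35.9 and 52.2, and in PC14CDDP the values were 153 and 183 for IFIH1 and 136 and 206 for TLR3.

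The difference between the LNA-miR-197 effect and the premiR-197 effect called 0.0644% of genes higher and 0.0443% lower and 0 members by limma. IFIH1 alone among the members, and 4532 of all genes, had an unadjusted p under 0.05 (IFIH1 log2 1.10, SE 0.45, limma adjusted p = 0.253, positive in 3 of 3 lines).

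**Figure D3:**
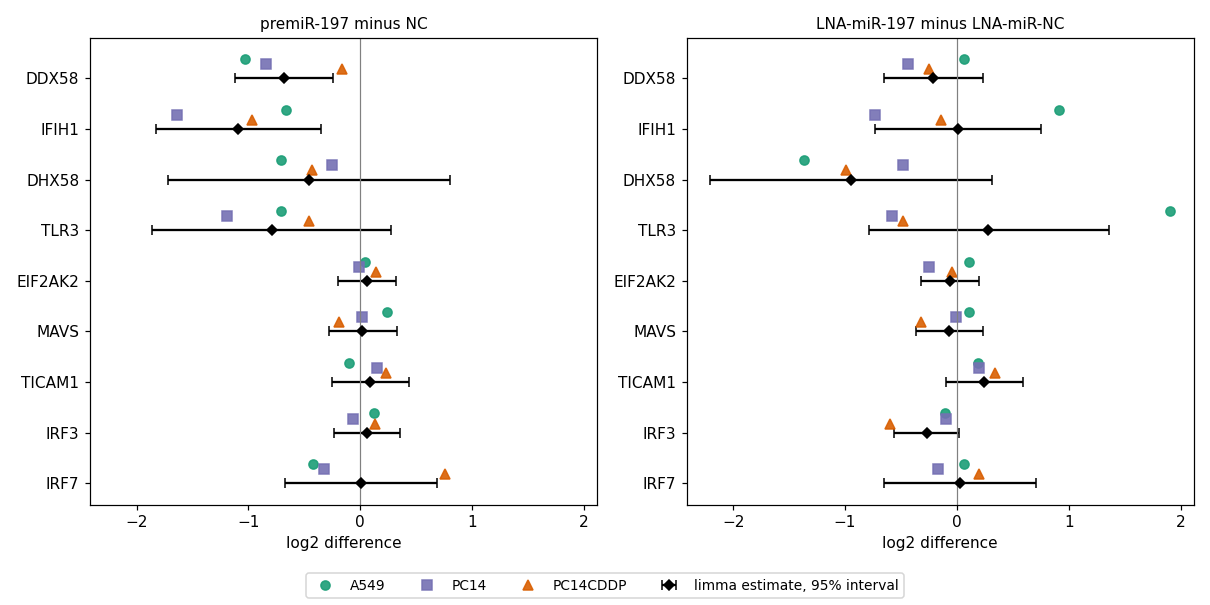
Log2 difference of premiR-197 from NC (left) and of LNA-miR-197 from LNA-miR-NC (right) for each gene, with coloured points for the 3 lines and black diamonds with bars for the limma estimate and its 95% interval. On the left the 3 points of DDX58, IFIH1, DHX58 and TLR3 lie below 0, and on the right the A549 point of TLR3 (1.91) lies apart from those of PC14 (-0.58) and PC14CDDP (-0.48).

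The A549 array of LNA-miR-197 also held the highest A549 signals of several interferon-stimulated genes. IFIT1, which binds viral RNA, gave 818 there against 176 to 370 on the other A549 arrays, and ISG15, a ubiquitin-like modifier, gave 2770 against 721 to 1530. The chemokine CCL5 gave 140 on this array and 44.0 after LNA-miR-NC in A549, and it was not well above background on the remaining 10 arrays. The interferon gene IL29 (now IFNL1) was well above background on this array only, at 15.1. OAS1, an antiviral synthetase, was well above background on the 4 A549 arrays (253 to 456) and on 0 others. This is 1 array, and what it owes to the oligonucleotide was not tested. The type I interferon gene IFNB1 and the chemokine CXCL10 were well above background on 0 of 12 arrays.

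Of the wider pathway, lists of genes were counted in the same fit. The shares of all genes called between chemistries, 4.45% higher and 6.36% lower, are the background for these counts. Between chemistries 3 of 16 tested genes of the PKR and eIF2alpha arm rose after LNA and 0 fell. They were the stress transcription factors ATF3 (log2 2.16, adjusted p = 0.0328) and DDIT3 (1.55, adjusted p = 0.0216) and the pseudokinase TRIB3 (0.62, adjusted p = 0.035), which also respond to stresses that do not involve PKR. All 3 were higher in each line. Between the controls alone they gave 1.52, 1.02 and 0.50 in the same order and were not called (limma adjusted p from 0.332 to 0.383). The median of the arm was 0.14 against -0.06 over all genes.

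Of 28 kinases and adaptors 3 rose, namely PELI1 (0.52), AZI2 (0.30) and MAP3K7 (0.22), and 0 fell. The kinase TBK1, which phosphorylates IRF3, gave 0.20 (limma adjusted p = 0.0587) and TRAF3, which links MAVS to it, -0.38 (limma adjusted p = 0.0511). Of 19 other RNA sensors 1, OAS3, fell (-0.52, limma adjusted p = 0.0379) and 0 rose. Of 23 regulators of the helicases 1 rose, DAK (now TKFC; 0.46), known as an inhibitor of MDA5. Between the controls alone, LNA-miR-NC against NC, none of these 4 genes was called, and DAK was lower in 3 of 3 lines (-0.34), with PELI1 at -0.07, AZI2 at 0.13 and MAP3K7 at 0.08. Between the active agents, LNA-miR-197 against premiR-197, all 4 were called higher (DAK 1.26, PELI1 1.11, AZI2 0.48 and MAP3K7 0.36). Of 23 interferon-stimulated outputs 0 were called by limma, with ISG15 at 0.59 (limma adjusted p = 0.0909), IFIT1 at 0.28 and MX1 at 0.22. Among the sensors OAS1 gave a mean of -0.40 but 0.56 in A549, the only line where it was well above background. Its values in PC14 (-0.74) and PC14CDDP (-1.04) are differences between signals at background, so that its mean gives no direction. Of 7 other IRF genes 0 were called, and of 10 genes of interferon receptors and their signaling 1, JAK1, fell (-0.31). Of 21 interferon genes 3 could be tested and 1, IFNA4, of a family of near-identical genes that a probe may not tell apart, fell (-0.28).

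For premiR-197 against NC and LNA-miR-197 against LNA-miR-NC the same lists gave few calls. Of all genes 0.0845% were called higher and 0.133% lower in the first, and 3.75% and 3.9% in the second. After premiR-197 the gene called was DAK, which fell (log2 -1.73, SE 0.12, limma adjusted p = 0.00696), with -1.42 in A549, -1.73 in PC14 and -2.04 in PC14CDDP. The median of the 23 outputs was -0.48 against 0.03 over all genes, with 0 called and with IFIT1 at -1.33 (limma adjusted p = 0.206), MX1 at -0.95 and ISG15 at -0.58, each lower in 3 of 3 lines. After LNA-miR-197 3 of 28 kinases and adaptors rose, the ubiquitin ligases PELI1 (1.19) and TRAF6 (0.63) and the TBK1 adaptor AZI2 (0.41). The RNA-binding protein TARBP2 (0.50), the autophagy gene ATG12 (0.81) and the PKR inhibitor DNAJC3 (0.88) also rose. The outputs IFI27 (-0.93) and UBA7 were called lower. UBA7 was well above background on 3 of 3 LNA-miR-NC arrays (13.3 to 15.2) and on 0 of 3 LNA-miR-197 arrays, at least 1.39-fold higher after LNA-miR-NC. It was otherwise well above background only on the PC14 array of premiR-197 (13.1). UBA7 thus entered the test only through the group where it was high, so that its call carries no weight. MX1 gave -1.32 (limma adjusted p = 0.0851).

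More genes were called between lines than between transfections, although DHX58, the member called between chemistries, was not called in any pair of lines. Against PC14, by the probe standing for each gene, PC14CDDP had higher IFIH1 and TLR3 and lower MAVS and DDX58 (its other probe was called higher), that is 2 members higher and 2 lower where 24.8% of all genes were called higher and 23.6% lower, so that the count of members stands near the background. IFIH1 signals ran from 101 to 183 in PC14CDDP and from 31.7 to 91.5 in PC14, without overlap, a 2.86-fold higher level (log2 1.52, SE 0.28, limma adjusted p = 0.00232). TLR3 ran from 136 to 243 against 35.9 to 87.1, also without overlap, a 3.95-fold higher level (log2 1.98, SE 0.40, limma adjusted p = 0.00395). MAVS, the mitochondrial adaptor, ran from 2940 to 3990 against 6780 to 8220 (log2 -0.97, SE 0.11, limma adjusted p = 0.000219). DDX58 ran from 109 to 149 against 200 to 330 by its brighter probe (log2 -0.80, SE 0.17, limma adjusted p = 0.00421). The share of all genes without overlap between lines was not counted, so that a lack of overlap between lines, here and below, is a description only. The 4 arrays of a line are cultures of the same line, and the tests between lines compare the lines as cultured and not independent lines of a kind.

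Against PC14, by the probe standing for each gene, A549 had higher IFIH1, EIF2AK2 and IRF3 and lower DDX58, MAVS, TICAM1 and IRF7 (other probes of DDX58 and MAVS were called higher), with 35.9% of all genes called higher and 32.3% lower. The largest difference was in IRF7, whose A549 signals of 395 to 958 lay below the 3060 to 3910 of PC14 (log2 -2.38, SE 0.25, limma adjusted p = 6.07e-05). TICAM1 ran from 2740 to 4620 in A549 and from 7340 to 9240 in PC14 (log2 -1.19, SE 0.13, limma adjusted p = 6.73e-05). IRF3 ran from 930 to 1120 against 659 to 738 (log2 0.61, SE 0.11, limma adjusted p = 0.00129). EIF2AK2, with 6600 to 7270 against 5130 to 6120, gave 0.30 (SE 0.10, limma adjusted p = 0.0237), and this call was lost under several settings. IFIH1 gave 1.04 (SE 0.28, limma adjusted p = 0.0101) and was lost without the premiR-197 arrays (0.99, limma adjusted p = 0.0565). All of A549 lay on another slide, so that slide and line cannot be told apart here.

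Against PC14CDDP, A549 had higher EIF2AK2 (log2 0.48) and IRF3 (0.71) and lower TLR3 (-2.80), TICAM1 (-1.36) and IRF7 (-2.28), with 36.8% of all genes called higher and 33.7% lower. By level, TLR3 was lowest in A549, then PC14, then PC14CDDP, and A549 and PC14 did not differ by the test (limma adjusted p = 0.103). IFIH1 was lowest in PC14, and A549 and PC14CDDP did not differ by the test (limma adjusted p = 0.157). DDX58 by its brighter probe and MAVS by its brightest were highest in PC14, with A549 and PC14CDDP not separated (limma adjusted p = 0.0778 and 0.723), whereas other probes of both genes were called higher in A549 than in PC14CDDP, as given below with the probes. DHX58 was not separated in any pair of lines, and its SD within a line was 1.58 (log2) in A549, 0.46 in PC14 and 1.89 in PC14CDDP. Its order of lines differed between transfections. After premiR-197 and NC its signals in PC14 (277 and 304) lay above those in A549 (64.4 and 106) and PC14CDDP (79.4 and 95.6). After LNA-miR-NC PC14 was lowest (577 against 811 in A549 and 1120 in PC14CDDP). The test of chemistry by line, given above, did not call DHX58.

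**Figure D4:**
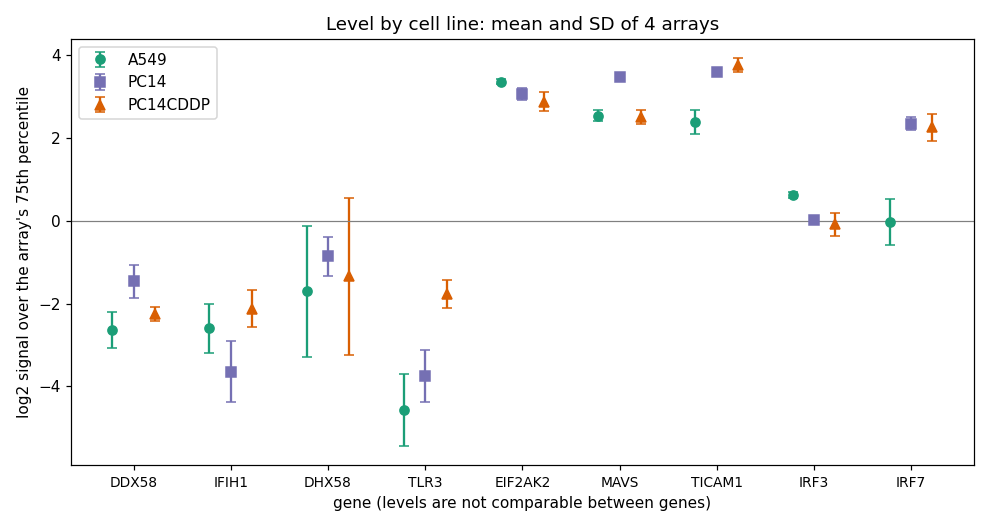
Mean log2 signal over the 75th percentile of the array for each gene in A549 (circles), PC14 (squares) and PC14CDDP (triangles), with bars for the SD of 4 arrays; levels are not comparable between genes. IRF7 and TICAM1 are lowest in A549, TLR3 is highest in PC14CDDP and MAVS is highest in PC14, while the bars of DHX58 overlap.

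Other pathway genes were also called in both directions between PC14CDDP and PC14. Of all genes 24.8% were called higher and 23.6% lower here, so that calls in both directions are the background of this comparison. Among the sensors 8 of 19 were higher, including DDX60 (log2 1.85) and OASL (1.57), and 2 were lower, one of them IFIT1 (-1.41). Of 23 regulators 6 were higher, including ATG5 (1.88) and ATG12 (1.01), and 6 lower, including RNF125, a ubiquitin ligase acting on RIG-I (-2.54), and NLRX1, a mitochondrial inhibitor of MAVS (-1.44). MYD88, the adaptor of other Toll-like receptors (-3.02), the caspase CASP10 (-2.39) and the TAK1-binding TAB1 (-1.35) were lower, and CASP8 (1.98) was higher, among 12 higher and 6 lower of 28 kinases and adaptors. Of the 23 outputs 7 were higher, including HERC5 (1.79), and SAMD9L and SAMD9, which were not well above background on any PC14 array and were at least 27.2-fold and 2.07-fold higher in PC14CDDP (limma adjusted p = 1.55e-06 and 8.64e-06), and 6 were lower, with PARP9 at -1.51. A bound sets the brighter mean against the higher of the dim signal and the lowest signal well above background on each array. In the PKR arm 4 of 16 were higher, including DDIT3 (1.83) and EIF2B2 (0.60), and 3 lower, namely DNAJC3 (-1.38), EIF2B5 (-0.74) and EIF2AK1 (-0.38). Of the other IRF genes IRF2 (0.52) was higher and 4 of 7 were lower, including IRF9 (-1.29) and IRF5 (-0.78). IRF8, counted among the lower genes, was not well above background on any PC14CDDP array and was at least 12.2-fold higher in PC14. It entered the test only through the 4 PC14 arrays, where it was high, so that its call carries no weight. The interferon receptor chains IFNAR1 (-0.77), IFNAR2 (-0.80) and IL28RA (-1.32) were lower, and SOCS1, which inhibits interferon signaling, was higher (2.50).

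The direction of line differences in DDX58 and MAVS depended on the probe. DDX58 has probes at positions 32455398 to 32455457 and 32455728 to 32455787 of hg19 chromosome 9. The first gave 211 to 317 in A549, 57.3 to 62.4 in PC14 and 109 to 140 in PC14CDDP, without overlap between lines, in the order A549, PC14CDDP, PC14. The second, which is brighter on average and stood for the gene, gave 66.5 to 137, 200 to 330 and 109 to 149 in these lines, with PC14 highest. Against PC14 the first probe was called higher in PC14CDDP (log2 1.11, limma adjusted p = 0.000205) and in A549 (2.23, limma adjusted p = 1.61e-06). The second was called lower in both (-0.80 and -1.17). For A549 against PC14CDDP the first gave 1.12 (limma adjusted p = 7.47e-05) and the second -0.37, which was not called. No statement on the level of DDX58 between lines therefore holds for the gene as a whole.

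MAVS has 7 probes on hg19 chromosome 20. In PC14CDDP against PC14 6 of them were called lower (-0.97 to -1.28), the exception being the probe at 3835323 to 3835382 (-0.14, limma adjusted p = 0.226). In A549 against PC14 the probe standing for the gene, at 3847884 to 3847943, was lower (-0.92, limma adjusted p = 0.000148). The overlapping probes at 3856703 to 3856762 and 3856711 to 3856770 were called higher (0.70, limma adjusted p = 0.0042, and 0.71, limma adjusted p = 0.00512). The probes at 3855582 to 3855778 lay between (-0.21 to -0.06, not called). In A549 against PC14CDDP these 5 downstream probes were all called higher (1.07 to 1.93, limma adjusted p from 1.02e-05 to 0.000547), while the standing probe gave 0.05 and the probe at 3835323 gave 0.22, neither called. After LNA-miR-197 against LNA-miR-NC the 5 probes from 3855582 to 3856770 gave -0.59 to -0.46, with limma adjusted p from 0.0608 to 0.154, and the standing probe gave -0.07. The probe pairs of EIF2AK2, TICAM1 and IRF3 had the same sign in each line comparison given here.

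**Figure D5:**
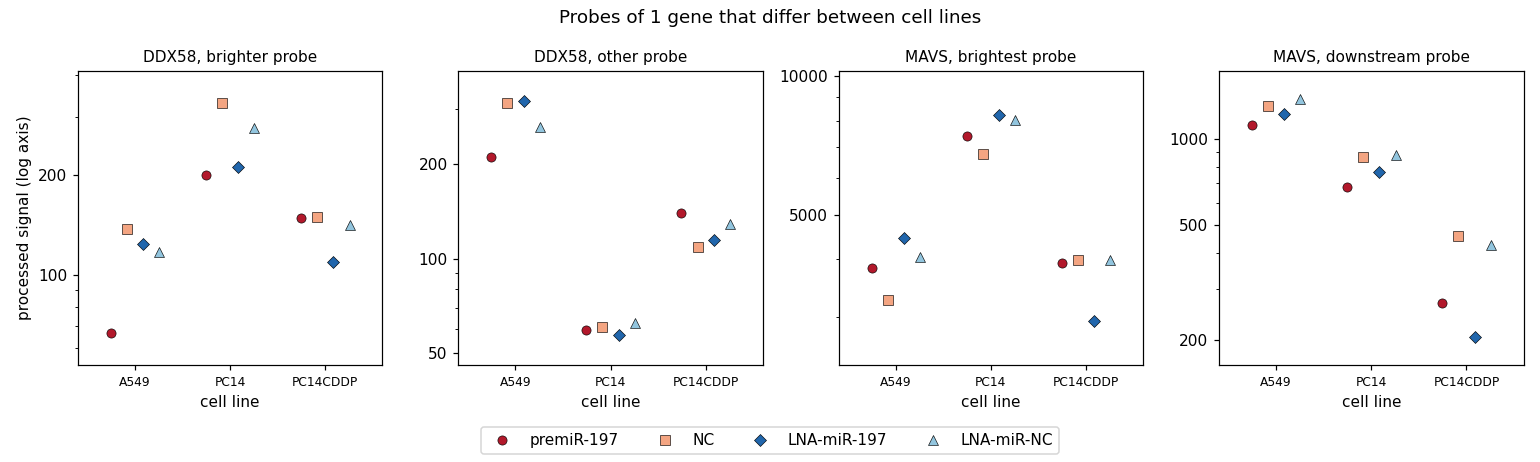
Processed signal (log axis) of both DDX58 probes and of 2 MAVS probes by line, 1 array per point, with symbols for the 4 transfections. The other DDX58 probe is lowest in PC14 (57.3 to 62.4), where the brighter probe is highest (200 to 330), and the downstream MAVS probe is highest in A549 (1120 to 1380).

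Across the 12 arrays, with each line centred on its own mean, DDX58, IFIH1 and TLR3 varied together, with Pearson's r of 0.709 for DDX58 and IFIH1, 0.671 for DDX58 and TLR3 and 0.759 for IFIH1 and TLR3. TICAM1 and IRF7 had r = 0.778, and MAVS and IRF3 0.662. DHX58 had r = 0.102 with DDX58, 0.401 with IFIH1 and -0.749 with EIF2AK2. These values are those of the probe standing for each gene. They describe 12 arrays that share lines, slides and transfections, and they carry no test. Among named genes the closest to DDX58 was USP18, itself interferon-stimulated (r = 0.939), and the closest to IFIH1 was OCEL1 (0.949). The closest to DHX58 were ZNF192P1 (0.977) and S100A14 (0.966), and 68 genes reached an r of at least 0.9 with it. The closest were C17orf49 for TLR3 (0.922), MAK for EIF2AK2 (0.956), ORAI1 for MAVS (0.911), ZNF284 for TICAM1 (0.964), SMTN for IRF3 (0.965) and HOXB2 for IRF7 (0.911).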

How the data were processed

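The authors deposited Agilent Feature Extraction 10.7.3.1 output for each array, with the intensity of every spot as a mean, a background and a processed signal that is background-subtracted and not scaled between arrays, and a series-wide intensity table that is identical to that signal on all 62976 spots. The main text of the study states no normalization for these arrays (its supplementary methods were not used here) and names Student's test for experiments in general. Control and outlier spots were left out, spots of a probe were averaged, and each log2 signal was set relative to the 75th percentile over the non-control spots of its array. Probes well above background on at least 3 of 12 arrays entered, and the probe with the highest mean stood for its gene. limma 3.58.1 in R 4.3.3 was fitted with transfection and line as terms on all 12 arrays, with eBayes and Benjamini-Hochberg adjustment at 0.05. The line pairs the arrays: deviations from the transfection means correlated within a line with r of 0.848 to 0.948. Current symbols came from RefSeq through 28174 of 50599 probes. The members and lists were chosen with earlier results of these data known. Named genes are all members, 11 genes always named, and per list up to 4 called genes with the largest difference in 4 comparisons; those most like a member were ranked by r. Values of some genes that this rule names are not reported here. Nothing says that cultures of a line were independent, so that p-values measure the spread between these arrays, and their number limits the precision. limma was tested on simulated data. Figures were drawn with Python and matplotlib.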

Additional observations from a re-analysis of the deposited data

Results flagged for a closer look

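With 1 array per transfection and line, 3 differences pointed one way in one line and the other way in another by at least 1.2-fold, out of 18 looked at, and the difference between the lines was not tested in any of them. IRF7 after premiR-197 against NC was higher in PC14CDDP and lower in A549, with 1.18 (log2) between them. IFIH1 after LNA-miR-197 against LNA-miR-NC was higher in A549 and lower in PC14, with 1.64 between them. TLR3 in the same comparison was higher in A549 and lower in PC14, with 2.49 between them. Among the 27 sets of 4 arrays, 1 for each member and line, 0 had an array far enough from the others to be singled out.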

How the results depend on the processing

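The call on DHX58 between chemistries was lost, leaving 0 members, without any 1 of the 3 lines (0 to 0 members; log2 1.60 to 2.84), without the replicate block (no line term: 2.12, limma adjusted p = 0.158), with the slide as block, and in 3 of the 4 single pairs of chemistries (LNA-miR-NC against NC, LNA-miR-197 against premiR-197 and LNA-miR-197 against NC: 0 members each). Its log2 difference stayed positive in all 12 alternatives. Normexp background correction called 1 member in LNA-miR-NC against NC (DHX58) and 1 in LNA-miR-197 against premiR-197, where the filter on all 12 arrays and eBayes with trend and robust prior also called 1. Counts for LNA-miR-197 against LNA-miR-NC, for premiR-197 against NC and for the difference of both effects were 0 under every setting run, and line counts stayed within 1.5 times. The block changed no other count of calls. The causes were not tested.

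Signs changed mainly near 0. Under quantile normalization, premiR-197 against NC gave -0.02 for MAVS and -0.04 for IRF7, and LNA-miR-197 against LNA-miR-NC gave -0.01 for IRF7; under normexp TLR3 gave -0.05 in the latter. With the mean of probes MAVS gave -0.06 between chemistries, -0.24 after premiR-197 and 0.02 in A549 against PC14, EIF2AK2 gave -0.01 after premiR-197 and 0.10 after LNA-miR-197, and DDX58 gave 0.15 in PC14CDDP and 0.53 in A549 against PC14. With every probe tested separately, the other DDX58 probe gave 0.01 after LNA-miR-197, 1.11 in PC14CDDP and 2.23 in A549, and the other EIF2AK2 probe -0.08 after premiR-197 and 0.26 after LNA-miR-197. Of the other MAVS probes, 5 gave -0.01, -0.17, -0.13, -0.14 and -0.06 between chemistries and -0.63, -0.22, -0.21, -0.13 and -0.54 after premiR-197, 3 gave -0.09, -0.01 and -0.10 in LNA-miR-NC against NC, and 3 gave 0.71, 0.70 and 0.07 in A549 against PC14.

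Leaving out 1 line turned signs between chemistries for DDX58 (-0.19 to 0.02), TLR3 (-0.44 to 0.01), MAVS (-0.02 to 0.13), TICAM1 (-0.04 to 0.24) and IRF3 (-0.08 to 0.04), after premiR-197 for MAVS (-0.08 to 0.13) and IRF7 (-0.37 to 0.22), after LNA-miR-197 for IFIH1 (-0.43 to 0.38), TLR3 (-0.53 to 0.71), EIF2AK2 (-0.14 to 0.04), MAVS (-0.16 to 0.05) and IRF7 (-0.05 to 0.13), and in LNA-miR-NC against NC for TICAM1 (-0.08 to 0.15). Leaving out 1 transfection turned IRF3 (-0.16 to 0.03) and IRF7 (-0.30 to 0.06) in PC14CDDP against PC14. The EIF2AK2 call in A549 against PC14 was lost without NC, premiR-197 or LNA-miR-197 arrays (0.22 to 0.33), with normexp (0.16) and without the transfection term (0.30). TLR3 in that comparison became called with quantile normalization (-1.07) and without the LNA-miR-197 arrays (-1.38), and DHX58 without the LNA-miR-NC arrays (-1.29). Repeated spots varied most at dim signals, where several TLR3 and IFIH1 values lie.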
